A study of Mus musculus with 4 samples.

Results

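RNA of amacrine, horizontal and ganglion cells was looked for in mTFP-positive cells sorted from the mouse retina, with 34 genes picked by symbol from the 24322 symbols of the deposited files. Of these, 16 are amacrine cell genes, 5 are horizontal cell genes, 8 are ganglion cell genes and 5 are pan-neuronal genes. The 4 RNA-seq libraries came from 1 mouse each, numbered 7984 and 3911 in the 2 controls and 7983 and 3914 in the 2 *Rax* iCKO mice, and values of a group are given in that order throughout. Control mice were Raxflox/WT and *Rax* iCKO mice were Raxflox/flox, and every mouse also carried *Rlbp1-CreERT2* and *R26-CAG-LoxP-mTFP1*, with 129S6 named in the labels. All mice received tamoxifen, at P4, and their retinas were harvested at P14. *Rlbp1* is a gene of Müller glia and of the pigment epithelium, so its promoter places CreERT2 in those cells. Tamoxifen then lets Cre delete the floxed *Rax* sequence and switch on the teal fluorescent protein mTFP1, by which the cells were sorted. Control cells therefore keep 1 intact *Rax* allele, and neither group has both alleles unfloxed.

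Amacrine and horizontal cells are interneurons of the inner nuclear layer. Amacrine cells release GABA or glycine, and some also acetylcholine, dopamine or a neuropeptide, onto bipolar and ganglion cells, while horizontal cells give feedback to photoreceptors. Ganglion cells send the axons of the optic nerve, and with amacrine and horizontal cells they are born before most Müller glia and bipolar cells. *Rlbp1* is not known as a gene of these neurons, so the comparison asks how much of their RNA the sorted cells contained and whether it differed between genotypes.

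The values are FPKM, fragments scaled to the length of the gene and to the mapped fragments of the library, so levels of different genes can be set side by side per length. The files give no read counts, but low FPKM values move in whole-read steps, which put the mapped reads at about 12710000 and 9270000 in the controls and at 9430000 and 9300000 in the *Rax* iCKO mice. *Rax* itself was at 189 and 181 FPKM in the control libraries and at 111 and 98.4 FPKM in the *Rax* iCKO libraries. *Xist* was at 24.5 and 21.2 FPKM in the controls and at 0.0119 and 0.00605 FPKM in the *Rax* iCKO mice, and the Y-linked gene *Eif2s3y* was above 0 in mouse 7983 alone, at 43.7 FPKM, so sex and genotype cannot be fully told apart. Markers of Müller glia were all present, led by *Apoe* at a mean of 4342 FPKM and *Rlbp1* at 1907 FPKM. The 12 markers of bipolar cells were also above 0 in every library, led by *Pcp2* at a mean of 4040 FPKM and *Gng13* at 2048 FPKM. Bipolar marker RNA was thus abundant beside that of Müller glia. Of the rod markers, *Sag* had a mean of 535 FPKM and *Pde6g* of 333 FPKM.

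Most of the inner retinal neuron genes were low, with a mean under 1 FPKM, and about as large a share as of all symbols was near 0, here taken as a mean under 0.1 FPKM. Of the 34 genes, 2 were listed at 0 in all 4 libraries, 12 were listed at 0 in some libraries, and 20 were above 0 in every library. The mean over the 4 libraries was under 0.1 FPKM for 12 genes (35.3%) and under 1 FPKM for 21 genes (61.8%), against 36.7% and 49.2% of all 24322 symbols. A mean under 1 FPKM was found for 12 of 16 amacrine, 4 of 5 horizontal, 5 of 8 ganglion and 0 of 5 pan-neuronal genes. None of the 12 bipolar and 13 Müller glial markers had a mean under 1 FPKM. The number of the 34 genes listed at 0 was 10 and 5 in the controls and 6 and 13 in the *Rax* iCKO mice, so the library with the fewest zeros was a control and that with the most was a *Rax* iCKO library.

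**Figure D1:**
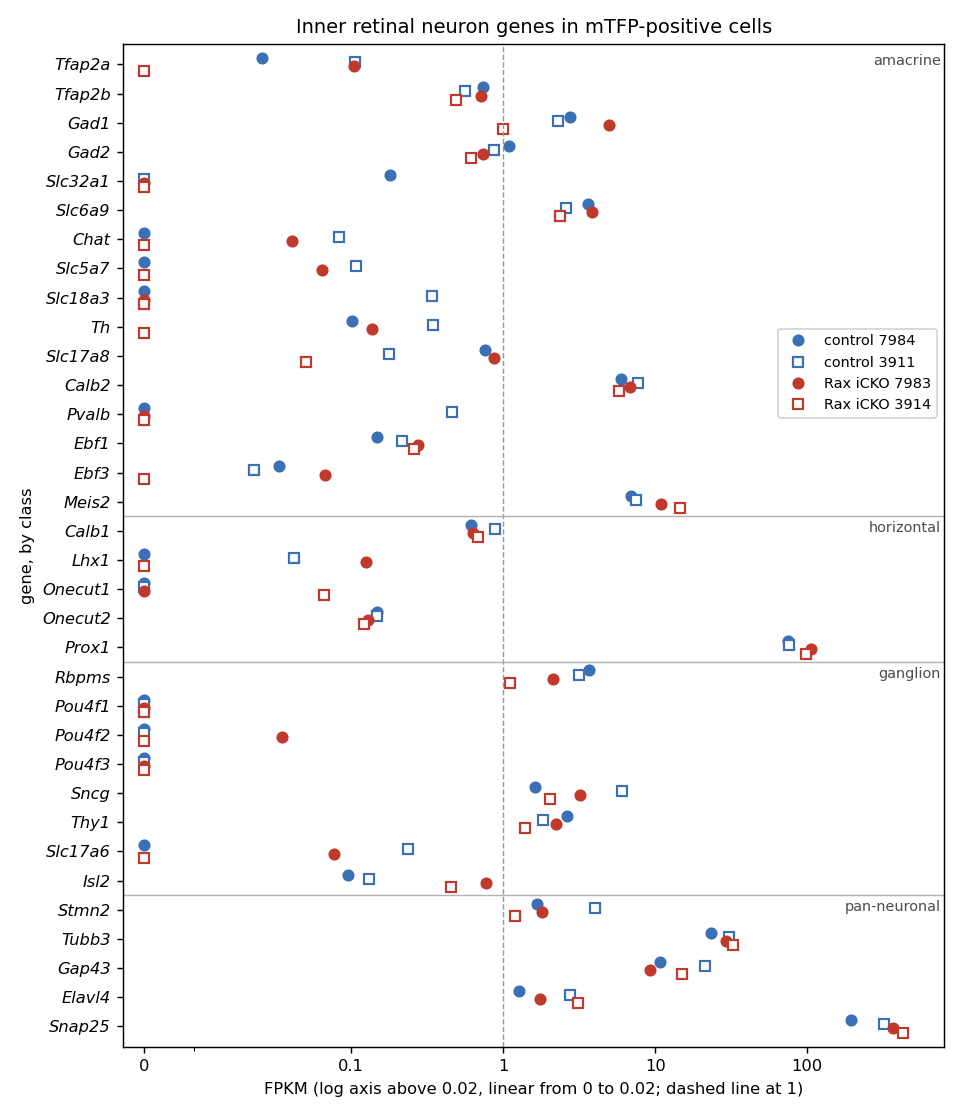
FPKM of each of the 34 genes in each library, on an axis that is linear from 0 to 0.02 and logarithmic above, with control libraries in blue and *Rax* iCKO libraries in red and one marker per mouse. The 21 genes with a mean under 1 FPKM lie mostly left of the dashed line, while *Snap25* and *Prox1* lie far to its right.

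Among amacrine cell genes, the cholinergic set was close to absent. *Chat*, which makes acetylcholine, was listed at 0 in control mouse 7984 and *Rax* iCKO mouse 3914, and was at 0.0825 FPKM in control mouse 3911 and 0.0406 FPKM in *Rax* iCKO mouse 7983. *Slc5a7*, the choline transporter, followed the same libraries with 0.108 FPKM in mouse 3911 and 0.0638 FPKM in mouse 7983. *Slc18a3*, which loads acetylcholine into vesicles and lies inside the *Chat* gene on the same strand, was above 0 in control mouse 3911 alone, at 0.341 FPKM. Together these 3 genes held about 0 and 14 reads in the controls and about 4 and 0 reads in the *Rax* iCKO mice. Each value therefore rested on a handful of reads, and no genotype difference was detectable at this depth.

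Genes of GABA and glycine signalling ranged more widely, from near 0 for *Slc32a1* to a mean above 1 FPKM for *Gad1* and *Slc6a9*. *Gad1*, a GABA-synthesizing enzyme on chromosome 2 (70553072 to 70602014, plus strand, GRCm38), was at 2.75 and 2.31 FPKM in the controls and at 4.96 and 0.991 FPKM in the *Rax* iCKO mice. The *Rax* iCKO mice were thus both the highest and the lowest, and the difference of *Rax* iCKO from control in log2(FPKM + 1) was -0.03 with a standard error of 0.53. *Gad2*, the second such enzyme, was at 1.08 and 0.873 FPKM in controls and at 0.742 and 0.613 FPKM in *Rax* iCKO mice. Both *Rax* iCKO values were below both controls, but its mean of 0.828 FPKM put it under the limit for the test. *Slc32a1*, which loads GABA and glycine into vesicles in all inhibitory amacrine cells, was above 0 in control mouse 7984 alone, at 0.181 FPKM or about 6 reads. *Slc6a9*, the glycine transporter of glycinergic amacrine cells, was at 3.63 and 2.59 FPKM in controls and at 3.86 and 2.38 FPKM in *Rax* iCKO mice. The groups overlapped, and the log2 difference was -0.01 with a standard error of 0.32.

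*Calb2* and *Meis2* were the highest amacrine cell genes. *Calb2*, the calcium-binding protein calretinin, was at 5.94 and 7.71 FPKM in controls and at 6.8 and 5.76 FPKM in *Rax* iCKO mice, with a log2 difference of -0.10 and a standard error of 0.26. *Meis2*, a homeodomain transcription factor of GABAergic amacrine cells, was at 6.89 and 7.44 FPKM in the controls and at 11.0 and 14.7 FPKM in the *Rax* iCKO mice. Both *Rax* iCKO libraries lay above both controls. The means were 7.17 ± 0.391 FPKM in control and 12.8 ± 2.62 FPKM in *Rax* iCKO libraries (SD, n = 2 each), and the log2 difference was 0.75 with a standard error of 0.25. Its unadjusted limma p was 0.0244 and the adjusted p was 1.0, so *Meis2* did not pass the test across all genes. On the same scale, mouse 7983 exceeded mouse 7984 by 0.60, and mouse 3914 exceeded mouse 3911 by 0.89.

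The other amacrine cell genes were low. The transcription factor *Tfap2b* was at 0.735 and 0.563 FPKM in controls and at 0.713 and 0.490 FPKM in *Rax* iCKO mice. *Slc17a8*, the vesicular glutamate transporter VGLUT3, split by the run of mouse numbers rather than by genotype, with 0.757 and 0.177 FPKM in the controls and 0.871 and 0.0505 FPKM in the *Rax* iCKO mice. About 41 and 35 reads lay behind its values in mice 7984 and 7983, against 7 and 2 reads in mice 3911 and 3914. *Ebf1*, a transcription factor of amacrine and ganglion cell subtypes, was at 0.147 and 0.215 FPKM in controls and at 0.275 and 0.257 FPKM in *Rax* iCKO mice, with no overlap between the groups but only 11 to 15 estimated reads per library. The remaining 4 genes, *Tfap2a*, *Ebf3*, *Th* (the first enzyme of dopamine synthesis) and *Pvalb* (the calcium-binding protein parvalbumin), were each listed at 0 in at least 1 library and stayed at or below 0.460 FPKM. In *Rax* iCKO mouse 3914 all 4 were listed at 0.

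**Figure D2:**
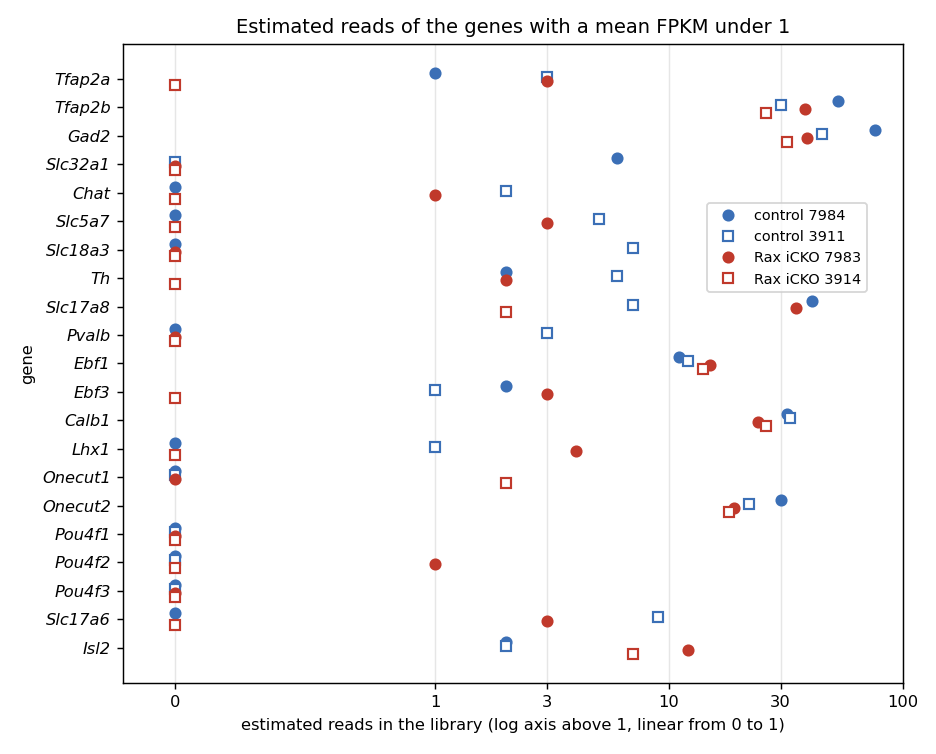
Estimated reads of the 21 genes with a mean under 1 FPKM in each library, on an axis that is linear from 0 to 1 and logarithmic above, with the same markers per mouse. No gene reached more than 76 reads, and *Pou4f1* and *Pou4f3* lie at 0 in all 4 libraries.

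Horizontal cell genes divided into *Prox1* and the rest. *Lhx1*, the LIM-homeodomain factor that defines horizontal cells, was listed at 0 in control mouse 7984 and *Rax* iCKO mouse 3914, and was at 0.0422 FPKM in control mouse 3911 and 0.125 FPKM in *Rax* iCKO mouse 7983. *Onecut1*, a transcription factor needed for horizontal cell genesis, was above 0 in *Rax* iCKO mouse 3914 alone, at 0.0661 FPKM or about 2 reads. Its paralog *Onecut2* was at 0.149 and 0.147 FPKM in controls and at 0.128 and 0.122 FPKM in *Rax* iCKO mice. Those groups did not overlap, yet the estimated reads were only 30 and 22 against 19 and 18. *Calb1*, the calcium-binding protein calbindin of horizontal and some amacrine cells, was between 0.618 and 0.888 FPKM, with overlapping groups.

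*Prox1*, in contrast, was among the higher genes of the libraries, above 94.9% of all symbols. This homeobox factor (chromosome 1, 190118035 to 190170714, minus strand, GRCm38) is found in horizontal cells, but also in AII amacrine cells, bipolar cells and Müller glia. It was at 74.6 and 76.1 FPKM in the controls and at 106 and 97.7 FPKM in the *Rax* iCKO mice. Both *Rax* iCKO libraries were above both controls. The log2 difference was 0.43 with a standard error of 0.20, an unadjusted limma p of 0.0755 and an adjusted p of 1.0. With *Lhx1* and *Onecut1* at or near 0 in the same libraries, the level of *Prox1* did not come with the other genes of its class.

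Ganglion cell genes had the lowest summed level of the 4 classes. The POU-domain factors *Pou4f1* and *Pou4f3* were listed at 0 in all 4 libraries. For *Pou4f1*, 1 read would have been worth 0.0185 to 0.0254 FPKM. *Pou4f2*, which specifies most ganglion cells (chromosome 8, 78433010 to 78436645, minus strand, GRCm38), was above 0 in *Rax* iCKO mouse 7983 alone, at 0.0352 FPKM or about 1 read. *Slc17a6*, the vesicular glutamate transporter of ganglion cells, was listed at 0 in control mouse 7984 and *Rax* iCKO mouse 3914 and was at 0.235 and 0.0771 FPKM in mice 3911 and 7983.

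*Rbpms*, an RNA-binding protein found in all ganglion cell types (chromosome 8, 33782643 to 33929863, minus strand, GRCm38), was above 0 in every library. It was at 3.66 and 3.13 FPKM in the controls and at 2.14 and 1.11 FPKM in the *Rax* iCKO mice. Both *Rax* iCKO libraries were below both controls, with means of 3.40 ± 0.377 FPKM and 1.62 ± 0.728 FPKM (SD, n = 2 each). The log2 difference was -0.77 with a standard error of 0.32, an unadjusted limma p of 0.051 and an adjusted p of 1.0, so the difference did not pass the test. About 109 and 68 reads lay behind the control values and about 47 and 24 behind those of *Rax* iCKO mice.

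The log2 difference was below 0 in the other ganglion cell genes tested as well, but smaller than its standard error. *Sncg*, the gamma-synuclein gene, was at 1.63 and 6.09 FPKM in the controls and at 3.19 and 2.02 FPKM in the *Rax* iCKO mice. The controls were its lowest and its highest libraries, and the log2 difference was -0.28 with a standard error of 0.51. *Thy1*, a surface protein of ganglion cells and other neurons, was at 2.61 and 1.83 FPKM in controls and at 2.21 and 1.40 FPKM in *Rax* iCKO mice, with overlapping groups and a log2 difference of -0.20 with a standard error of 0.31. *Isl2*, a LIM-homeodomain factor of a subset of ganglion cells, was higher in *Rax* iCKO mice, at 0.77 and 0.455 FPKM against 0.0951 and 0.131 FPKM in controls. These values came from about 12 and 7 reads against about 2 and 2, and the mean of 0.363 FPKM was under the limit for the test.

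The 5 pan-neuronal genes were present in every library. *Snap25*, a membrane fusion protein of presynaptic terminals in most neurons including photoreceptors and bipolar cells (chromosome 2, 136713453 to 136782428, plus strand, GRCm38), was the highest of the 34 genes and stood above 99% of all symbols. It was at 193 and 321 FPKM in the controls and at 366 and 429 FPKM in the *Rax* iCKO mice. Both *Rax* iCKO libraries were above both controls. The log2 difference was 0.67 with a standard error of 0.32, an unadjusted limma p of 0.0826 and an adjusted p of 1.0. Mouse 7983 stood 0.92 above mouse 7984, and mouse 3914 stood 0.42 above mouse 3911. Of the 12 bipolar markers, 2 had the same order of libraries as *Snap25* (*Trpm1* and *Lhx4*, named after their values were seen), and 9 were highest in a *Rax* iCKO library (4 in mouse 7983 and 5 in mouse 3914). The part of bipolar RNA in the *Snap25* values was not tested.

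*Tubb3*, the neuronal beta-tubulin, was at 23.3 and 30.8 FPKM in controls and at 29.1 and 32.6 FPKM in *Rax* iCKO mice, with a log2 difference of 0.20 and a standard error of 0.23. *Gap43*, a protein of growing axons, was at 10.7 and 21.2 FPKM in controls and at 9.24 and 15.1 FPKM in *Rax* iCKO mice, with a log2 difference of -0.33 and a standard error of 0.39. *Stmn2*, a regulator of axonal microtubules, was at 1.66 and 4.05 FPKM in controls and at 1.8 and 1.2 FPKM in *Rax* iCKO mice. *Elavl4*, a neuronal RNA-binding protein, was at 1.27 and 2.74 FPKM in controls and at 1.74 and 3.11 FPKM in *Rax* iCKO mice. In each of these 4 genes the groups overlapped. Control mouse 3911 had the highest *Stmn2*, *Gap43* and *Sncg*. Of the 12 bipolar markers, 3 were highest in that library, *Pcp2* and *Gng13* among them, and 3 were lowest. The summed bipolar markers were also highest there, at 10744 FPKM against 4420 to 8968 FPKM in the others. The part of bipolar RNA in the values of *Stmn2*, *Gap43* and *Sncg* was not tested.

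Genotypes were compared by limma, a moderated linear model, on log2(FPKM + 1). The 12363 genes that averaged at least 1 FPKM entered the test, and a call was an adjusted p under 0.05. Of the 34 genes, 13 were tested and 0 were called in either direction, where the same test called 0.00809% of all genes tested as higher and 0.0162% as lower in *Rax* iCKO mice. At an unadjusted p under 0.05 there was 1 of the 13, *Meis2*, against 1.26% of all genes tested higher and 1.6% lower. The log2 difference was above 0 in 5 and below 0 in 8 of the 13 genes, against 49.2% above and 50.8% below among all genes tested. Its median was -0.03, and that of all genes tested was -0.0044. With 2 libraries per group an exact two-sided permutation test of 1 gene cannot go below p = 0.333. With the run of mouse numbers (7983 and 7984, 3911 and 3914) as a block, whose meaning the labels do not give, 0 of the 13 were called as well, against 0.194% of all genes tested higher and 0.38% lower. The p-values measure only the spread between these libraries.

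Among the 32 genes above 0 in any library, both *Rax* iCKO libraries were above both controls for 5 (15.6%), against 13.7% of all 17865 genes above 0. These were *Meis2*, *Ebf1*, *Prox1*, *Isl2* and *Snap25*. Both were below both controls for 3 (9.38%), *Gad2*, *Onecut2* and *Rbpms*, against 14.5% of all genes. Of the 13 genes tested, 3 did not overlap and were higher (23.1%, background 15.4%) and 1 did not overlap and was lower (7.69%, background 14.1%). The counts were thus near the background in both directions. The highest library was control mouse 7984 for 6 genes, control mouse 3911 for 12, *Rax* iCKO mouse 7983 for 9 and *Rax* iCKO mouse 3914 for 5.

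**Figure D3:**
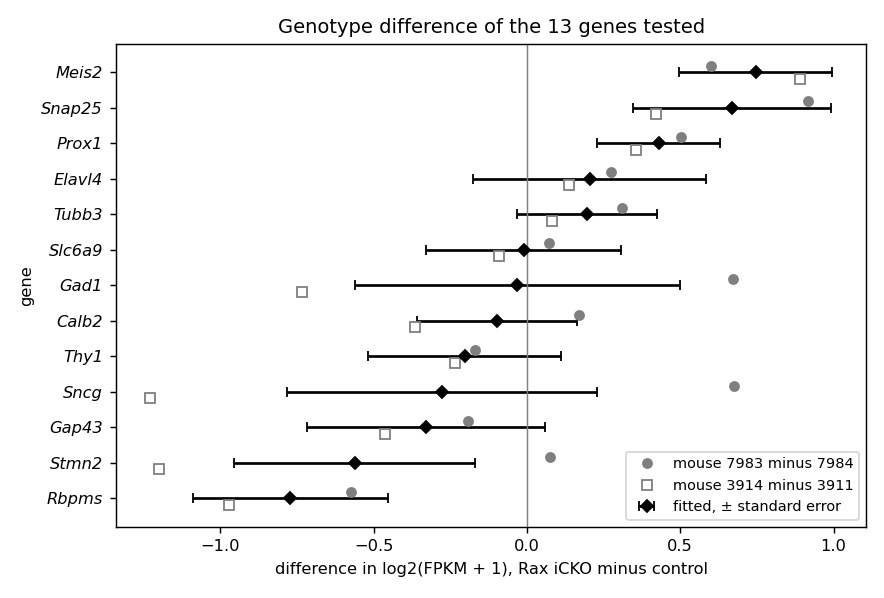
Difference in log2(FPKM + 1) of *Rax* iCKO from control for the 13 genes tested, as the fitted value with its standard error (black) and between the mice of adjacent numbers (grey). *Meis2*, *Snap25* and *Prox1* lie above 0 and *Rbpms* below 0 in both pairs, while *Gad1* is at 0.67 in one pair and -0.73 in the other.

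The promoter of *Meis2* bears the core letters of the site that the study predicts Rax to bind. Because *Meis2* also had the lowest p of the 13 genes, the sequence of that promoter is shown. It comes from RefSeq (GRCm38.p6, minus strand, chr2:116064570-116064869) and runs 5′ to 3′ from 250 bases before to 50 bases after an annotated start, with the match to AATTA in capitals.
*Meis2* promoter: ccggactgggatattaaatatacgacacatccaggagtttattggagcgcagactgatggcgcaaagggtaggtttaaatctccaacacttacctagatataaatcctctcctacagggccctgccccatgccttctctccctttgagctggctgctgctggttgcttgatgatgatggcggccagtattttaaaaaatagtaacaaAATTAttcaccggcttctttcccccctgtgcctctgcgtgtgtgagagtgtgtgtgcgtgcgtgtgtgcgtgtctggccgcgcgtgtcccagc
TAATT or its reverse complement AATTA was searched on both strands of such windows. At least 1 match was found in 9 of the 25 genes with a RefSeq window (36%), against 26.1% of 17181 genes of the files. Among genes with a mean of at least 1 FPKM, it was found in 3 of 7, *Meis2*, *Slc6a9* and *Elavl4*, against 18.8% of 9364 genes. A match describes letters only, and no binding was measured here. Neither RefSeq window of *Prox1* held a match.

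Summed over the 34 genes, FPKM were 336 and 491 in the controls and 553 and 610 in the *Rax* iCKO mice. The groups did not overlap, and the ratio of the means was 1.41. On the log2 scale this ratio was 0.49, and it was 0.24 without control mouse 7984 and 0.79 without control mouse 3911. *Snap25* and *Prox1* made up most of it. Without them the sums were 68.0 and 94.6 FPKM in controls and 80.8 and 83.1 FPKM in *Rax* iCKO mice, with a ratio of 1.01. The 21 genes under 1 FPKM summed to 3.93 and 4.74 FPKM in controls and to 4.78 and 2.74 FPKM in *Rax* iCKO mice. Amacrine cell genes summed to 22.3 and 23.3 FPKM in controls and 29.6 and 25.2 FPKM in *Rax* iCKO mice, a difference in which *Meis2* had the largest part. Ganglion cell genes summed to 8.0 and 11.4 FPKM in controls and 8.42 and 4.98 FPKM in *Rax* iCKO mice. In such bulk samples, fewer cells of a type and less RNA per cell cannot be told apart.

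Markers of other cells were summed in the same way. The 12 bipolar markers gave 4420 and 10744 FPKM in the controls and 6030 and 8968 FPKM in the *Rax* iCKO mice, with overlapping groups, and 5 of the 12 were higher in *Rax* iCKO mice without overlap. The 13 Müller glial markers gave 16430 and 13150 FPKM in controls and 11118 and 11433 FPKM in *Rax* iCKO mice, and 6 of the 13 were lower without overlap. The 12 rod markers gave 2368 and 2312 FPKM against 1661 and 1439 FPKM, and 10 of them were lower without overlap. Among all genes tested, 15.4% were higher and 14.1% lower without overlap. Cone markers (144 to 200 FPKM), astrocyte markers (148 to 223 FPKM), endothelial and pericyte markers (26.4 to 53.2 FPKM) and microglial markers (19.1 to 106 FPKM) overlapped between the groups. Pigment epithelium markers, whose cells *Rlbp1* could also label, summed to 4.78 and 7.49 FPKM in controls and 7.69 and 10.05 FPKM in *Rax* iCKO mice, without overlap. Without *Ttr*, named after its values were seen, these sums were 3.78 and 3.37 FPKM against 5.20 and 2.68 FPKM, with overlap. *Mlana* was listed at 0 in all libraries, as was *Thbs4* of the astrocyte list. The part of these cells in the values of *Snap25*, *Prox1* and *Meis2* was not tested. The summed amacrine cell genes came to 0.217% to 0.504% of the summed bipolar markers, lists that differ in size and in the levels of their genes.

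**Figure D4:**
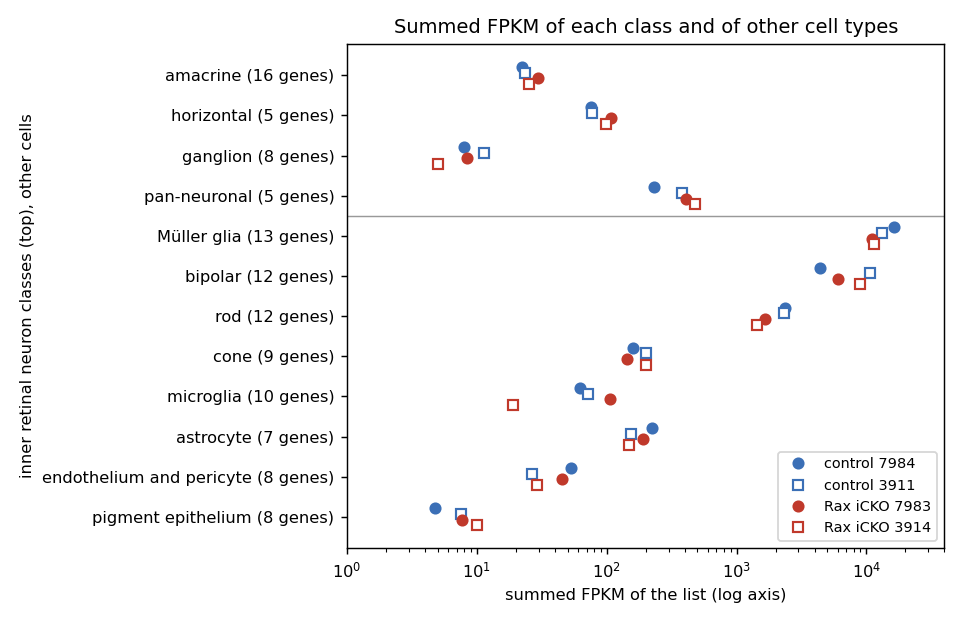
Summed FPKM of each class of inner retinal neuron genes (top) and of the marker lists of other cell types (bottom) in each library, on a log axis, with the number of genes in each list. Ganglion cell genes lie between 4.98 and 11.4 FPKM and bipolar markers between 4420 and 10744 FPKM.

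Other genes of the same classes, 82 in all, were described from lists written alongside. Of these, 50 were tested and 0 were called by limma, with 5 at an unadjusted p under 0.05. The log2 difference was above 0 in 36 and below 0 in 14, and 17 (34%, background 15.4%) were higher without overlap and 1 (2%, background 14.1%) was lower, *Penk*, which is named after its values were seen. Other pan-neuronal genes carried most of that. Of the 29 tested, 26 had a log2 difference above 0 (25 after quantile normalization or with equal medians), 12 (41.4%) were higher without overlap and 0 were lower, with a median of 0.29. Of the bipolar markers, 11 of 12 were above 0, with a median of 0.38 (12 of 12 and 0.48 after quantile normalization), and their part in the pan-neuronal values was not tested. *Syn1*, a synaptic vesicle protein, was at 20.4 and 16.3 FPKM in controls and 30.9 and 25.5 FPKM in *Rax* iCKO mice, with a log2 difference of 0.60 and a standard error of 0.23. The long noncoding RNA *Meg3* was at 22.3 and 22.2 FPKM against 36.7 and 37.8 FPKM. Many pan-neuronal genes are used by bipolar cells and photoreceptors as well.

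The amacrine, horizontal and ganglion genes among them were mixed. Of 22 other amacrine cell genes, 10 were tested, with 5 above and 5 below 0. *Npy*, which encodes the neuropeptide Y of an amacrine subtype, was the highest of them, at 128 and 91.3 FPKM in the controls and at 398 and 277 FPKM in the *Rax* iCKO mice. Both *Rax* iCKO libraries were above both controls, the log2 difference was 1.61 with a standard error of 0.30, and the unadjusted limma p was 0.00157 with an adjusted p of 1.0. With the mouse-number run as a block, *Npy* passed in limma (adjusted p = 6.90e-05), as did *Sphkap* (adjusted p = 0.0481). The level of *Npy* was far above that of most genes of its list. Of the 22 other amacrine cell genes, 12 had a mean under 1 FPKM, and the median of the means was 0.576 FPKM. Which of the sorted cells the *Npy* RNA came from was not tested. *Cartpt*, the precursor of the CART peptides, was at 3.05 and 3.05 FPKM in controls and 4.67 and 6.51 FPKM in *Rax* iCKO mice. Of 4 other horizontal cell genes tested, *Sphkap* was at 35.8 and 44.0 FPKM in controls and 61.1 and 69.5 FPKM in *Rax* iCKO mice, and *Ndnf* was at 69.8 and 59.9 FPKM against 84.3 and 75.6 FPKM. *Sept4*, the highest of that list, was at 305 and 332 FPKM against 229 and 325 FPKM. Of 7 other ganglion cell genes tested, 3 were above and 4 below 0, with a median of -0.14. The highest of them, *Isl1*, which ON bipolar and some amacrine cells also use, was at 220 and 591 FPKM in controls and 356 and 506 FPKM in *Rax* iCKO mice. *Klf7*, a transcription factor of growing neurons and the one gene of the 7 without overlap, was at 2.21 and 3.04 FPKM against 3.45 and 5.48 FPKM.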

How the data were processed

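RNA-seq was performed on FACS-sorted mTFP-positive cells of 4 mice, 2 per genotype, grouped by the genotype in the sample labels. Per the labels, full-length cDNA was amplified with a SMART-Seq kit and the submitters' processing notes name TopHat2 2.1.1, Bowtie2 2.2.8, SAMtools 0.1.18 and Cuffdiff 2.2.1 with mm10. The study's methods name other versions and another RNA isolation, so neither is settled. The authors deposited 1 FPKM value per gene and library, which was used without further scaling. Whether strand was used in counting is not given in the sources used here, so genes with a partner on the opposite strand (*Gad1*, *Slc6a9*, *Tfap2a* and *Ebf3*) and *Slc18a3*, nested in *Chat*, are uncertain.

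The files list the same 24322 symbols, and all 34 genes were found. Depth was estimated from 474 single-transcript genes. Among 2310 genes under 0.5 FPKM, 90.4% had values within 0.5% of whole reads, against 23% after noise was multiplied in. Reads per gene were taken from the longest GENCODE transcript less 200 bases, and they are estimates on which no test was run. Intervals from counting are therefore not given.

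The comparison of genotypes used log2(FPKM + 1), which understates changes of low genes, and the limma package (3.58.1, R 4.3.3) with a variance trend, for genes averaging at least 1 FPKM, with Benjamini-Hochberg adjustment. The test was checked on simulated data. Alternatives were a pseudocount of 0.1, no filter, a mean of at least 5 FPKM, quantile normalization, equal medians, a block for the mouse-number run, a near-0 limit of 0.5 FPKM and leaving out each mouse. The genes, the lists and the rule for naming (all genes with a mean of at least 1 FPKM, best known markers, genes at 0 in all libraries or without overlap, and the leading genes of each other list) were chosen with earlier results of these data known. A gene that this rule would name is not reported here.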

Additional observations from a re-analysis of the deposited data

How the results depend on the processing

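The 71 values of the 13 genes tested under alternatives that keep all 4 libraries kept their direction and their side of the threshold, and 0 of the 34 genes were called under any alternative. At an unadjusted p under 0.05 there were 1 of the 13 genes and 5 of the 50 other genes tested (2.86% of all genes tested), 4 of 34 and 12 of 82 with no filter (4.39%), 4 and 10 after quantile normalization (3.31%), 2 and 4 with equal medians (2.63%) and 4 and 18 with the mouse-number run as a block (15.7%). On leaving out a mouse there were 0 to 2 and 1 to 5 (1.04% to 4.46%). The deviations of same-run mice from their group means correlated at 0.503 across 12363 genes (0.422 across the 13 genes), but with 2 pairs and no label that ties the numbers the pairing is not established. With that block 2 of the other genes were called, *Npy* (adjusted p = 6.90e-05) and *Sphkap* (adjusted p = 0.0481), and no other call changed. The median log2 difference was 0.31 with a mean of at least 5 FPKM, which tests fewer genes (6), and ranged from -0.20 to 0.13 on leaving out a mouse. The log2 ratio of the summed FPKM was 0.49 and ranged from 0.24 (without control mouse 7984) to 0.79 (without control mouse 3911). On leaving out a mouse, with the lone library of a group assumed to vary like the others, 11 of 52 values changed sign, in 7 genes. Their ranges were -0.82 to 0.76 for *Gad1*, -0.27 to 0.25 for *Slc6a9*, -0.26 to 0.066 for *Calb2*, -0.99 to 0.44 for *Sncg*, -0.41 to 0.0069 for *Thy1*, -0.79 to 0.13 for *Gap43* and -0.16 to 0.56 for *Elavl4*. At the limit of 0.5 FPKM, 18 genes counted as near 0 in place of 12. After quantile normalization 2 genes in place of 3 were lower without overlap. The depth limits the 21 genes under 1 FPKM most, since few had over 30 reads.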
